A study of Mus musculus with 8 samples.

Results

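The 10 genes described here were Bcl6, Ascl2, Cebpa, Pou2af1, Cxcr5, Il21r, Il6ra, Il6st, Il1r2 and P2rx7, a set built around the follicular regulatory program and chosen by name from the 49212 genes in the raw count files. The choice was made with earlier results of these data known, so shares of the 10 beside all genes describe the set and do not test it. RNA-seq had been run on effector Treg (eTreg) cells sorted as CD45+CD44+YFP+CD4+CD3+ from spleens and tumors of C57BL/6 mice. The design held 4 groups of 2 libraries, WT spleen, KO spleen, WT tumor and KO tumor. It asks how loss of Blimp1, the repressor encoded by Prdm1, changes eTreg cells in each tissue, and how the cells differ between tissues.

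WT mice were FoxP3YFP-Cre and KO mice were Prdm1fl/flFoxP3YFP-Cre, so both genotypes carried the allele that places YFP and Cre under the Foxp3 locus. Deletion was therefore limited to cells that express or had expressed Foxp3, and the sort took cells that were YFP+ at the time. All mice bore subcutaneous B16.OVA, a mouse melanoma line that carries ovalbumin, and were immunized against NP-OVA, first on day 0 with CFA as adjuvant and then on day 7 with IFA. Tumors were at most 1.5 cm3. The labels give no age, the methods describe young mice of both sexes, and neither says whether the 2 libraries of a group came from separate mice or from pools, so every p-value measures the spread between these libraries only. Splenic CD4+ cells had been enriched on beads before the sort and tumor cells had not, so the tissue and that step cannot be told apart.

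Follicular regulatory T (TFR) cells are Foxp3+ cells that enter the B-cell follicle and restrain the germinal center. Bcl6 is the repressor that directs the follicular fate, Blimp1 opposes it, and each represses the gene of the other. CXCR5, the receptor for CXCL13, guides the cells to the follicle, and IL-6 and IL-21 promote Bcl6 through STAT3.

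Libraries held 27834676 to 43903859 counts on genes. Levels are given as CPM, a gene's counts relative to the total of its library, with libraries scaled by the trimmed mean of M values (TMM), and 3 counts, taken as the floor, equal 0.0644 to 0.112 CPM. Gene totals include exons outside the floxed part of Prdm1, so they do not test the deletion. Prdm1 stood at 40.6 and 53.4 CPM in KO spleen against 54.0 and 21.0 in WT spleen, and at 90.7 and 75.1 in KO tumor against 108 and 192 in WT tumor. The KO tumor libraries stood apart from the others in several markers of the sorted cells. The summed level of 8 T and Treg cell markers was 1530 and 4110 CPM there, against 8592 and 11517 in WT tumor and 4974 to 6418 in spleen, and Foxp3 was at 2.99 to 10.2 CPM against 25.5 to 60.5 in WT tumor. Ctla4, an inhibitory receptor abundant in Treg cells and the largest of the 8 in WT tumor, was at 461 and 917 CPM in KO tumor against 4136 and 5719 in WT tumor. From these data the paper lists Ctla4, Foxp3, Ikzf2 and Il2ra, all among the 8 markers, as downregulated in KO tumor eTreg cells. Cd3e, a T-cell receptor chain, was low in KO tumor replicate 1 (315 CPM) but not in replicate 2 (1023 CPM), against 927 and 1427 in WT tumor. Cd3d was at 167 and 732 CPM in KO tumor against 713 and 843 in WT tumor, and Cd3g at 299 and 1223 against 1129 and 1305. Cd4, a marker of the sort, was at 148 and 66.2 CPM in KO tumor against 807 and 1086 in WT tumor. All 10 macrophage and monocyte markers were detected in every library, and their sum was 15889 CPM in KO tumor replicate 1, 1817 in KO tumor replicate 2, 562 to 3308 in WT tumor and 298 to 2188 in spleen. The pair of CD8 T-cell markers summed to 406 and 2220 CPM in KO tumor against 48.2 to 148 in WT tumor, the 10 neutrophil markers to 215 and 465 against 12.3 to 98.7, the 4 plasma cell markers to 32.5 and 144 against 6.61 to 37.2, and the 6 melanocyte markers to 786 and 3027 against 1064 to 1958. Results from the KO tumor group are therefore also given without each of its libraries. Without replicate 1 they rest on replicate 2, which had the lowest Cd4 and Foxp3 and the highest CD8 marker sum of the 8 libraries.

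Bcl6 lies on chromosome 16 (GRCm38, 23965052 to 23988852, minus strand), and 6700 exonic bases were counted. RefSeq gives it starts at a pair of promoters, one directly upstream of the gene start and one inside an intron, 7568 bases downstream, with no base of either window in a counted exon. They are shown because they carry the letters TTCNNNGAA, the motif bound by STAT factors downstream of the IL-6 and IL-21 receptors. Each run is the 250 bases before the start (RefSeq, GRCm38.p6, minus strand, written 5′ to 3′), with matches in capitals.
Bcl6, upstream promoter, chr16:23988853-23989102: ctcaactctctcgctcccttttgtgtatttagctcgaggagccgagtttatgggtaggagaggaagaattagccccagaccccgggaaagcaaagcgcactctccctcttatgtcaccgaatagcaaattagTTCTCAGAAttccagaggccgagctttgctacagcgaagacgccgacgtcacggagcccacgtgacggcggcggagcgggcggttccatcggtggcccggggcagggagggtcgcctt
Bcl6, intronic promoter, chr16:23981284-23981533: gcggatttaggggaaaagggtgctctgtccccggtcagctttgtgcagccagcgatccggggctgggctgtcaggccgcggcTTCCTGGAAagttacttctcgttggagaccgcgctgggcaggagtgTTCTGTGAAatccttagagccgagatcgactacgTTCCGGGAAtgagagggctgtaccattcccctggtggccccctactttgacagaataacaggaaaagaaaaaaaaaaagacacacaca
The upstream window held 1 match, TTCTCAGAA, beginning 118 bases before the start. The intronic window held 3, TTCCTGGAA at 168, TTCTGTGAA at 122 and TTCCGGGAA at 88 bases before its start. The motif reads alike on both strands and was present in 7.02% of 32851 promoter windows of the same length. RefSeq promoters were matched for 9 of the 10 genes (11 windows), and Il1r2 was the other gene with this motif, 1 match 111 bases before its start. That window lies inside the counted Il1r2 gene and ends 12013 bases downstream of the gene start. Counted exons of Il1r2 hold 108 of its bases. The Blimp1 core GTGAAAG (3.571% of windows) and the E-box CAGCTG (13.001%), searched on both strands, were in none of the 11 windows. A match describes letters and not a bound site.

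Among the transcription factors, Bcl6 was highest in KO spleen, at 53.7 and 50.0 CPM. It stood at 38.7 and 11.3 CPM in WT spleen, 43.8 and 16.8 in KO tumor and 19.5 and 21.9 in WT tumor. The KO spleen libraries lay above every other library, while the remaining 3 groups overlapped. Ascl2, a basic helix-loop-helix factor that induces Cxcr5 in T cells, was at 5.45 and 4.86 CPM in KO spleen and 1.92 and 2.32 in WT spleen. In tumor it was near the floor, at 0.444 and 0.150 CPM (14 and 4 counts) in KO and 1.04 and 0.304 (29 and 9 counts) in WT. Its 4 splenic values thus lay above its 4 tumor values.

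Cebpa, a factor best known for directing myeloid differentiation, ranged narrowly in spleen, from 7.00 and 7.84 CPM in WT to 9.58 and 8.66 in KO. In tumor it was at 0.826 and 0.169 CPM in WT (23 and 5 counts) and at 16.4 and 2.28 in KO. The highest value of the series was in KO tumor replicate 1, the library with the largest macrophage marker sum. Pou2af1, the coactivator of the octamer factors that is needed for germinal centers and is abundant in B cells, was at 29.1 and 19.96 CPM in KO spleen and 13.3 and 6.95 in WT spleen. It was at 5.74 and 1.61 CPM in KO tumor, at 0.575 in WT tumor replicate 1 and at 0 counts in WT tumor replicate 2, where the floor was 0.101 CPM. The 4 groups followed one another without overlap. In the libraries of each group the 10 B-cell markers summed to 59.4 and 65.6 CPM in KO spleen, 63.0 and 93.4 in WT spleen, 74.7 and 14.6 in KO tumor, and 22.1 and 26.8 in WT tumor, where Ms4a1 and Pax5 each had a library at 0.

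Cxcr5 was separated between tissues in both genotypes. Its level was 185 and 156 CPM in KO spleen and 134 and 62.0 in WT spleen, against 12.4 and 9.24 in KO tumor and 3.45 and 10.7 in WT tumor. Every splenic library lay above every tumor library, and the tumor genotypes overlapped.

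The cytokine receptors differed in their spread. Il21r, the receptor chain specific for IL-21, was abundant throughout, at 388 and 336 CPM in KO spleen, 480.3 and 207 in WT spleen, 298 and 498 in KO tumor and 722 and 379.7 in WT tumor, and all 4 groups overlapped. Il6ra, the IL-6 binding chain, was at 37.4 and 39.5 CPM in KO spleen and 42.6 and 55.4 in WT spleen. It was at 7.76 and 11.5 CPM in WT tumor, and the KO tumor libraries straddled this range, at 37.3 in replicate 1 and 7.37 in replicate 2. Il6st encodes gp130, the signaling chain shared by the IL-6 family. It was at 156 and 116 CPM in KO spleen, 187 and 46.3 in WT spleen, 103 and 48.0 in KO tumor and 97.4 and 104 in WT tumor, and the lowest value was in WT spleen replicate 2.

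Il1r2, the decoy receptor that binds IL-1 without signaling, had its highest and its lowest values within the tumor. It was at 290.1 and 437 CPM in WT tumor, 262 and 244 in KO spleen, 167 and 111 in WT spleen and 126 and 96.3 in KO tumor. WT tumor lay above KO tumor while KO spleen lay above WT spleen, without overlap in either tissue. P2rx7, an ATP-gated channel that limits the survival of follicular T cells, was at 273 and 197 CPM in KO spleen and 227 and 89.9 in WT spleen, against 72.8 and 17.8 in KO tumor and 31.1 and 34.4 in WT tumor, so spleen lay above tumor in both genotypes.

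**Figure D1:**
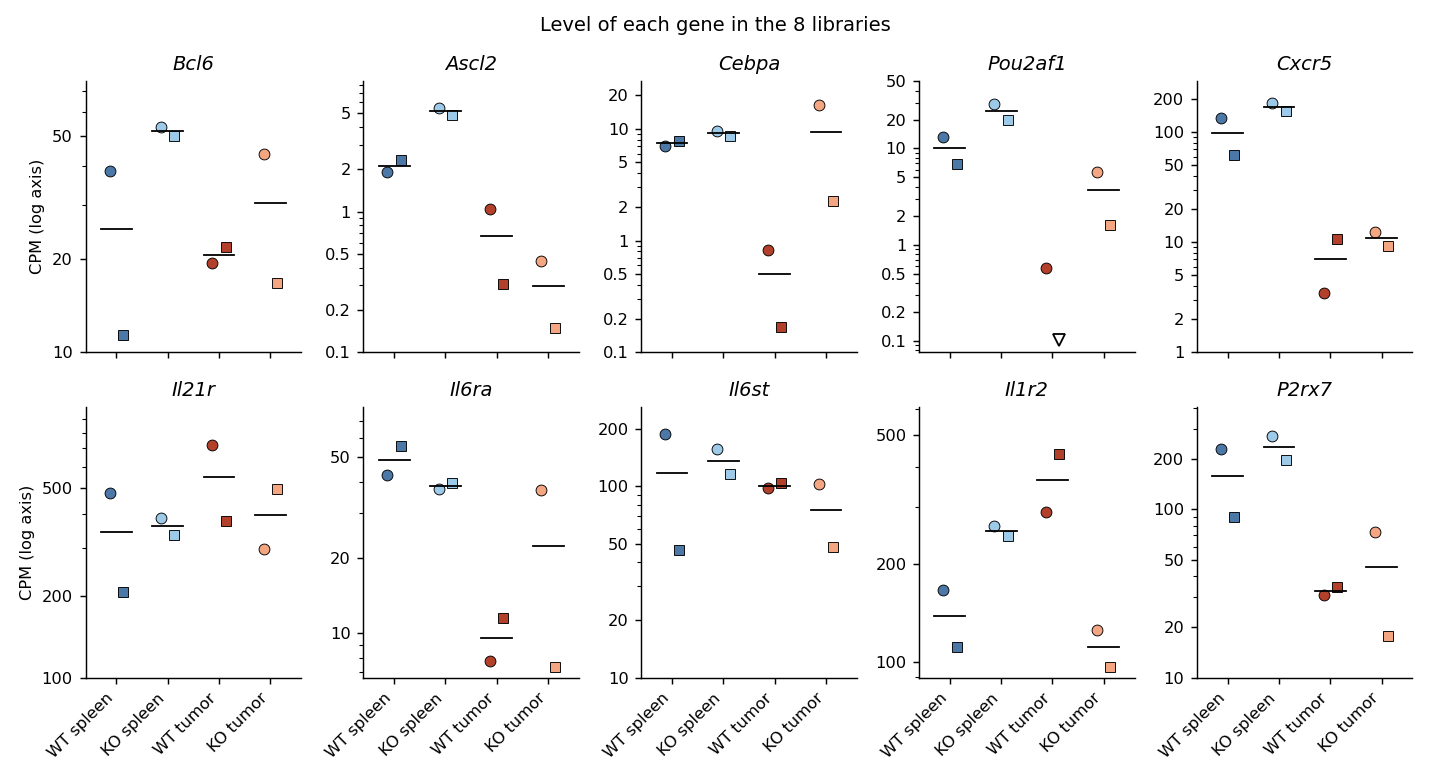
Level of each of the 10 genes in CPM on log axes, by group; circles are replicate 1, squares replicate 2 and lines the mean of 2 libraries above 0, and the open triangle marks the floor of 0.101 CPM for the library with 0 Pou2af1 counts. The 4 splenic libraries lie above the 4 tumor libraries for Cxcr5, Ascl2, P2rx7 and Pou2af1, and the order of the genotypes for Il1r2 differs between spleen and tumor.

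Per kilobase of exon, which allows levels of different genes to be compared, the receptors led in each group. In KO spleen the order was Il1r2 (132 ± 6.62 CPM per kb, mean ± SD, n = 2), Il21r (109 ± 11.1), Cxcr5 (51.1 ± 6.15) and P2rx7 (39.4 ± 8.98), each clear of the next, and Bcl6 stood at 7.74 ± 0.389. In WT tumor Il1r2 (190.5 ± 54.4 CPM per kb) and Il21r (166 ± 72.8) overlapped. They were followed at a distance by Il6st (9.06 ± 0.395), P2rx7 (5.48 ± 0.396), Bcl6 (3.08 ± 0.253) and Cxcr5 (2.12 ± 1.53), of which Bcl6 and Cxcr5 overlapped. Il21r ranked first in KO tumor, at 119.7 ± 42.5 CPM per kb, clear of Il1r2 at 58.1 ± 10.8, and it ranked first in WT spleen at 103 ± 58.1, where it overlapped Il1r2 at 72.8 ± 20.8. From P2rx7 (rank 3) down to Pou2af1 (rank 9) the neighbors in KO tumor all overlapped.

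KO and WT were compared within the tumor to ask how Blimp1 loss changes eTreg cells there. Cebpa and Pou2af1 were higher in both KO libraries than in both WT libraries, Il1r2 was lower, and the groups overlapped for the other 7 genes. No overlap in the higher direction was seen for 18% of the 15935 genes tested and in the lower direction for 19.4%. Il1r2 was 3.29-fold lower in KO tumor (log2 −1.72 ± 0.36 SE, edgeR quasi-likelihood test with Benjamini-Hochberg adjustment over all genes, adjusted p = 0.252), and Cebpa was 18.7-fold higher (log2 4.22 ± 1.28, edgeR adjusted p = 0.378). Bcl6 (log2 0.55 ± 0.52) and Cxcr5 (log2 0.61 ± 0.64) differed by about the size of their standard errors.

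A gene was called where the adjusted p was under 0.05 and the absolute log2 fold change over 1. In tumor edgeR called 0 of the 10 genes, against 0% of all genes tested. At an unadjusted p under 0.05 edgeR gave 2 of the 10 and 1573 of 15935 genes. The Wald test of DESeq2 called 2 of the 10, Cebpa (adjusted p = 0.00307) and Il1r2 (adjusted p = 0.0128), against 4.68% of genes. Pou2af1 was 12.7-fold higher, with 1 of the WT libraries at 0 counts (log2 3.67 ± 1.56, edgeR adjusted p = 0.542; DESeq2 adjusted p = 0.0935). The remaining log2 differences were 1.21 ± 0.79 for Il6ra, 0.46 ± 0.66 for P2rx7, −0.42 ± 0.42 for Il6st, −0.47 ± 0.46 for Il21r and −1.15 ± 0.96 for Ascl2. The median over the 10 genes was 0.51, and over all genes 0.04.

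These values moved with the library. Without KO tumor replicate 1, the library with the largest macrophage marker sum, the log2 difference was 2.19 for Cebpa, 2.48 for Pou2af1, −1.92 for Il1r2 and −0.39 for Il6ra, the last of which changed sign. Without KO tumor replicate 2 it was 5.02 for Cebpa, 4.30 for Pou2af1 and −1.55 for Il1r2. Without WT tumor replicate 1 it was 5.74 for Cebpa, and the WT group was left at 0 Pou2af1 counts, against whose floor of 3 counts the KO mean was at least 36.3-fold higher. Scaled to Cd3d, Cd3e and Cd3g, the T-cell receptor chains, the difference was 5.97 for Cebpa and −0.23 for Il1r2, and the median of all genes shifted by 1.33. The T and Treg marker sum was also lower in both KO tumor libraries. In KO tumor replicates 1 and 2 Il1r2 was at 126 and 96.3 CPM, and the sums were 1530 and 4110 CPM. In spleen the sums were 5355 and 4974 CPM in KO and 5878 and 6418 in WT. The part of cell content in the Cebpa, Pou2af1 and Il1r2 differences was not tested. Fewer cells of a type and less RNA per cell cannot be told apart in such bulk libraries. The richest 200-nt stretch of Cebpa is 80.5% GC, and over the 727 tested genes whose own richest stretch lay between 80 and 85% the median log2 difference here was 1.04, a relation whose part was not tested either. For Pou2af1 (64.0%) and Il1r2 (54.5%) the medians of the matching bins were −0.0044 and −0.0328.

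**Figure D2:**
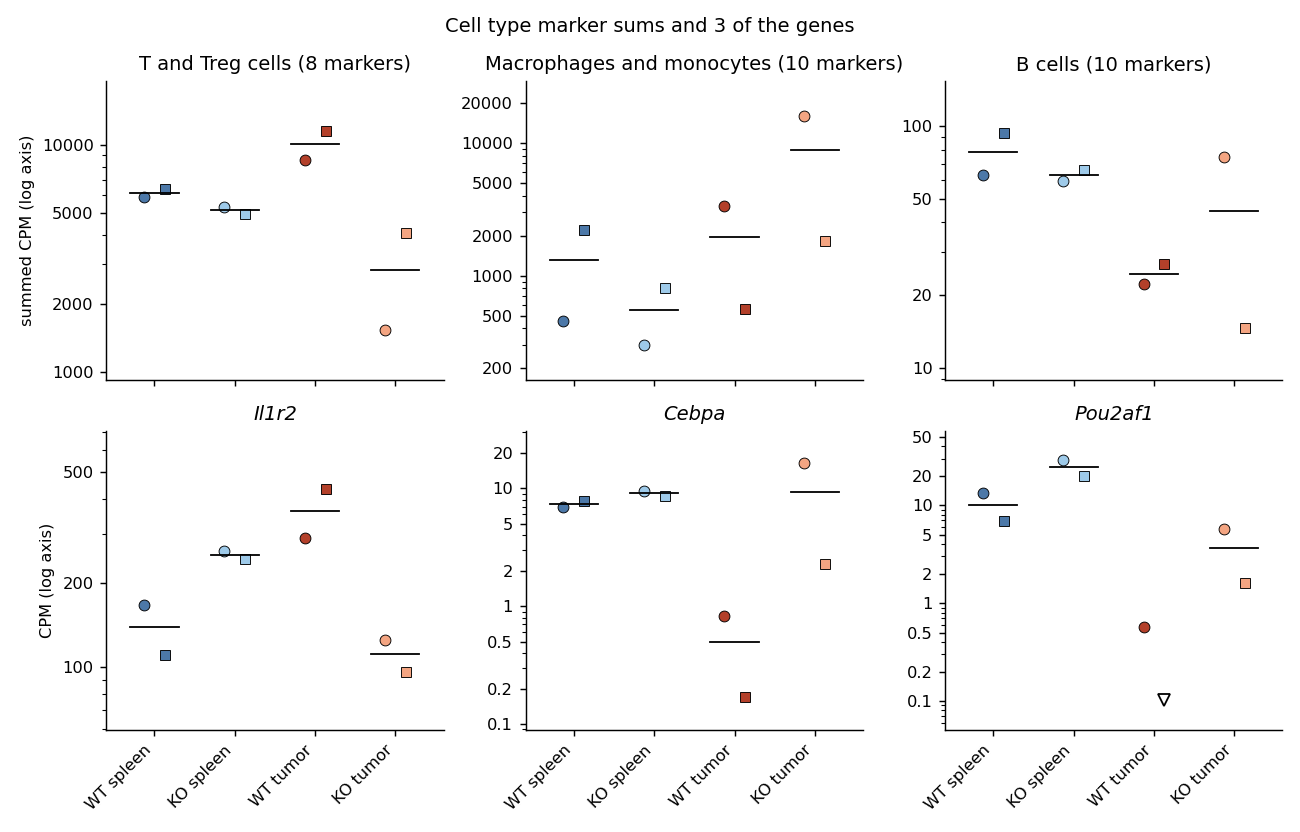
Summed level of T and Treg, macrophage and B-cell markers (CPM, log axes, upper panels) and level of Il1r2, Cebpa and Pou2af1 (lower panels) in each library; circles are replicate 1, squares replicate 2, lines means of 2 libraries, and the open triangle the floor for a count of 0. KO tumor replicate 1 has the largest macrophage sum, 15889 CPM, the smallest T and Treg sum, 1530 CPM, and the highest Cebpa, 16.4 CPM.

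In spleen the libraries labelled KO held more of most of these transcripts. Bcl6, Cxcr5, Ascl2, Cebpa, Pou2af1 and Il1r2 were higher in both KO libraries than in both WT libraries, 6 of the 10, where 16.4% of the 16583 genes tested showed this. Il6ra alone lay lower without overlap (15.7% of genes). The fold was 2.43 for Ascl2, 2.41 for Pou2af1, 2.07 for Bcl6, 1.81 for Il1r2 and 1.73 for Cxcr5. None of the 10 passed the threshold in edgeR or DESeq2, against 0% and 0.416% of genes.

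At an unadjusted p under 0.05 edgeR gave 3 of the 10 genes and 489 of all genes, and these were Pou2af1 (log2 1.27 ± 0.44), Ascl2 (log2 1.28 ± 0.47) and Il1r2 (log2 0.86 ± 0.36), each with an edgeR adjusted p of 0.878. The estimates were 1.05 ± 0.56 for Bcl6 and 0.79 ± 0.44 for Cxcr5. Those for P2rx7 (0.57 ± 0.49), Cebpa (0.29 ± 0.39), Il6st (0.22 ± 0.62), Il21r (0.07 ± 0.46) and Il6ra (−0.36 ± 0.33) were small beside their errors or close to them. The median over the 10 genes was 0.68 and over all genes −0.02. The WT spleen libraries differed from each other, and WT spleen replicate 2 held less Bcl6, Cxcr5, Il21r, Il6st and P2rx7 than replicate 1. Its macrophage marker sum was 2188 CPM against 452, and its T and Treg marker sum was 6418 against 5878. The part of cell content in this was not tested. With WT spleen replicate 1 left out, edgeR called 6 of the 10 genes (Bcl6 at log2 2.25, Cxcr5, P2rx7, Pou2af1, Il1r2 and Il6st) and 3972 genes in all, and with WT spleen replicate 2 left out it called 0 of the 10.

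The difference between the genotype effects of the 2 tissues was fitted as an interaction over all 8 libraries. Il1r2 had the smallest relative error, at log2 −2.57 ± 0.51 (tumor effect minus spleen effect), with an edgeR adjusted p of 0.234 and a DESeq2 adjusted p of 0.00496. Cebpa was at 3.93 ± 1.31 (edgeR adjusted p = 0.484, DESeq2 adjusted p = 0.0496), and Ascl2 at −2.43 ± 1.05. edgeR called 0 of the 10 genes and 0% of 17870 genes, with 3 of the 10 and 1399 genes at an unadjusted p under 0.05. DESeq2 called 2 of the 10 and 1.85% of genes. With 1 library left out the estimate ranged from −2.91 to −2.26 for Il1r2 and from −3.43 (without KO tumor replicate 1) to −1.27 (without WT tumor replicate 1) for Ascl2. For Cebpa it ranged from 1.89 (without KO tumor replicate 1) to 5.49 (without WT tumor replicate 1). Bcl6 (−0.50 ± 0.85) and Cxcr5 (−0.18 ± 0.78) lay within their standard errors of 0.

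Tumor and spleen were compared within WT to ask how the tissue alters eTreg cells that keep Blimp1. The follicular receptor and 4 more genes fell in tumor, and edgeR called 0 of the 10 higher. Cxcr5 was 13.9-fold lower (log2 −3.79 ± 0.65, edgeR adjusted p = 0.00889), Il6ra 5.10-fold (edgeR adjusted p = 0.0201), Cebpa 14.9-fold (edgeR adjusted p = 0.0266), P2rx7 4.82-fold (edgeR adjusted p = 0.0314) and Pou2af1 35.0-fold (edgeR adjusted p = 0.0323). Bcl6 did not follow Cxcr5, at log2 −0.27 ± 0.58. These 5 of 10 compare with 5.97% of the 16427 genes tested by edgeR, of which 307 fell and 674 rose.

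DESeq2 also called 5 of the 10 (9.91% of genes), with Il1r2 in place of Pou2af1. Il1r2 was 2.62-fold higher in tumor (log2 1.39 ± 0.47, edgeR adjusted p = 0.126, DESeq2 adjusted p = 0.0414), and Pou2af1, with a library at 0 counts, had a DESeq2 adjusted p of 0.181. Ascl2 was at log2 −1.65 ± 0.83, Il21r at 0.69 ± 0.55 and Il6st at −0.21 ± 0.59. Tumor lay below spleen without overlap for 6 of the 10 genes (27% of all genes), the 5 above and Ascl2, and above it for Il1r2 (25.1% of genes). The median log2 difference was −1.96 over the 10 genes and −0.04 over all. With all 8 libraries in 1 fit only Cxcr5 kept its call (edgeR adjusted p = 0.0179), and with 1 library left out 2 or 3 genes did, Cxcr5 losing its call without WT tumor replicate 1 (edgeR adjusted p = 0.0542). Over these omissions the log2 difference ranged from −4.79 (without WT tumor replicate 2) to −3.12 (without WT spleen replicate 1) for Cxcr5, from −5.41 (without WT tumor replicate 1) to −3.12 (without replicate 2) for Cebpa and from −2.75 (without WT spleen replicate 2) to −1.44 (without replicate 1) for P2rx7. Pou2af1 was at −4.09 without WT tumor replicate 2, and the WT spleen mean was at least 100.1-fold above the floor of that library, which held 0 counts.

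The same comparison in KO drew on the libraries with low T and Treg marker sums. Cxcr5 was 15.5-fold lower in KO tumor than in KO spleen (log2 −3.95 ± 0.29, edgeR adjusted p = 0.0353), and it was the 1 gene of the 10 that edgeR called, against 1.35% of 16933 genes. Ascl2 was 16.7-fold lower (log2 −4.06 ± 0.70, edgeR adjusted p = 0.0590). At an unadjusted p under 0.05 edgeR gave 5 of the 10 genes and 5256 of all. DESeq2 called 5 of the 10 (19.7% of genes), all lower in tumor: Cxcr5 (DESeq2 adjusted p = 6.27e-21), Ascl2 (8.48e-07), Pou2af1 (0.00128), P2rx7 (0.00818) and Il1r2 (0.0149).

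Tumor lay below spleen without overlap for 8 of the 10 genes (32.9% of all genes), all but Il21r and Cebpa, and above it for 0 (30.6% of genes). For Il6ra the gap was narrow, with KO tumor replicate 1 at 37.28 CPM and KO spleen replicate 1 at 37.38. Il1r2, at log2 −1.17 ± 0.25 here and 1.39 ± 0.47 in WT, had opposite signs in the 2 genotypes, and the interaction above is the test of that contrast. Pou2af1 was at −2.70 ± 0.71, P2rx7 at −2.34 ± 0.73, Il6st at −0.82 ± 0.44, Il6ra at −0.75 ± 0.78 and Bcl6 at −0.75 ± 0.51, while Il21r was at 0.14 ± 0.31 and Cebpa at 0.07 ± 0.93. The median was −0.996 over the 10 genes and 0.01 over all. Without KO tumor replicate 1 the log2 difference was −1.63 for Bcl6, −2.00 for Cebpa and −4.21 for Cxcr5. Without KO tumor replicate 2 it was −0.20 for Bcl6, 0.89 for Cebpa and −3.73 for Cxcr5. With 1 library left out Ascl2 ranged from −5.08 to −3.49, P2rx7 from −3.73 to −1.65 and Pou2af1 from −3.93 to −2.05. Cxcr5 was not called with either KO spleen library left out. Scaled to the CD3 chains, which shifted the median of all genes by 1.38, edgeR called 0 of the 10, and the estimates for Bcl6 (0.97) and Il1r2 (0.33) became positive.

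**Figure D3:**
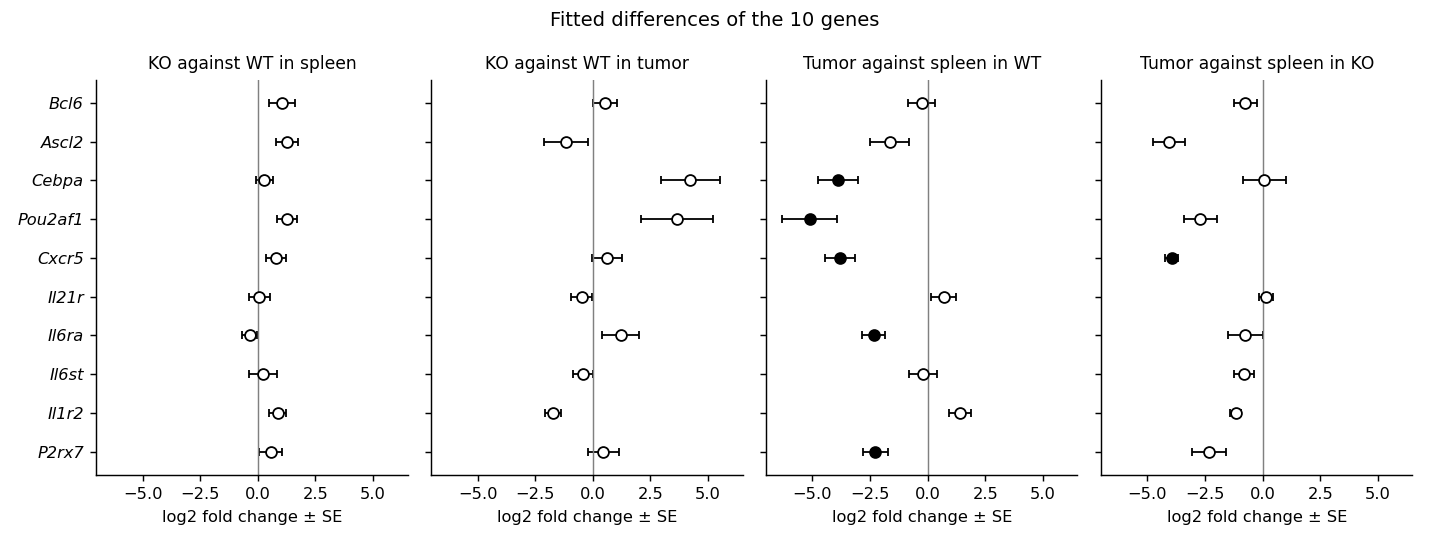
Log2 fold change of each gene with its standard error (edgeR) in the 4 comparisons; filled points were called (adjusted p under 0.05 and more than 1 on the log2 scale), and open points were not. In WT 5 genes are filled, all lower in tumor, Cxcr5 is the 1 filled gene in KO, and none is filled between genotypes.

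The balance of Bcl6 and Prdm1, which encode the opposed repressors, was described by the ratio of their levels per kilobase. In spleen the ratio was 1.08 and 0.768 in KO and 0.587 and 0.443 in WT, and in tumor it was 0.396 and 0.183 in KO and 0.147 and 0.0933 in WT. Every splenic library lay above every tumor library, and within each tissue KO lay above WT. On the log2 scale the mean was −2.49 ± 0.87 (SD, n = 4) in tumor and −0.55 ± 0.55 (SD, n = 4) in spleen. The difference was −1.94 (two-sided exact permutation test over 70 splits, p = 0.0286, the smallest that 4 against 4 libraries gives). The splits took no account of genotype. Prdm1 is the gene targeted in KO, so the genotype order of the ratio is given as values only. Prdm1 itself was at log2 2.01 ± 0.55 between WT tumor and WT spleen (edgeR adjusted p = 0.0628) and at 0.83 ± 0.26 between KO tumor and KO spleen (edgeR adjusted p = 0.112).

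For the IL-6 receptor, the ratio of Il6ra to Il6st per kilobase was 0.102 and 0.142 in WT tumor and 0.465 and 0.197 in KO tumor. It was 0.308 and 0.436 in KO spleen and 0.292 and 1.54 in WT spleen. WT tumor held the lowest values, and the highest was WT spleen replicate 2, in which Il6st was low. Tumor and spleen differed by −1.37 on the log2 scale (two-sided exact permutation test, p = 0.143).

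**Figure D4:**
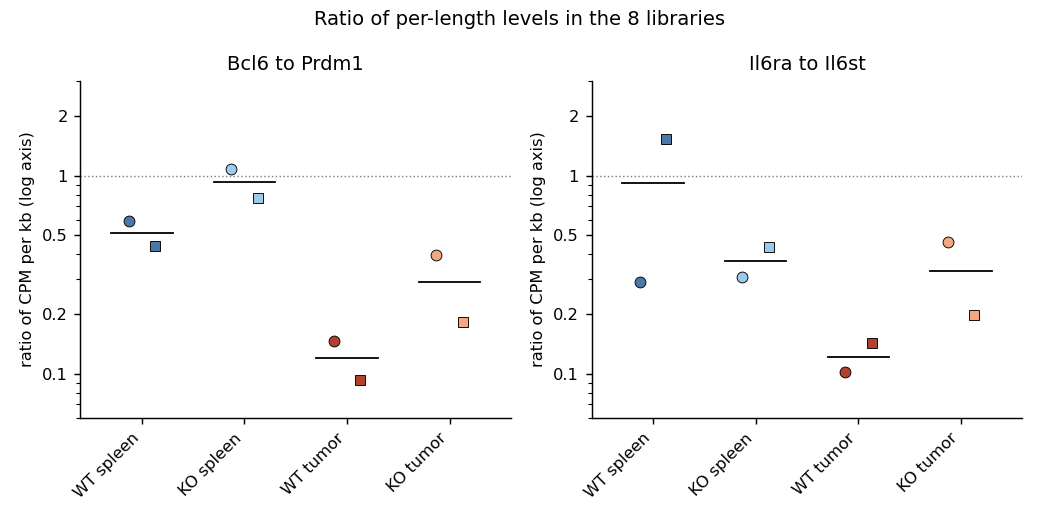
Ratio of CPM per kb of Bcl6 to Prdm1 and of Il6ra to Il6st in each library (log axes), with circles for replicate 1, squares for replicate 2, a line at the mean of 2 libraries and a dotted line at equal levels. The Bcl6 to Prdm1 ratio falls from 0.443 to 1.08 in spleen to 0.0933 to 0.396 in tumor, whereas spleen and tumor overlap for Il6ra to Il6st.

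Other genes of these pathways were read from lists chosen with results of these data known. Of 20 follicular T-cell genes, edgeR called 5 lower and 1 higher in WT tumor against WT spleen (5.97% of all genes in either direction), with a median log2 difference of −0.74 against −0.04 over all genes. The factors Id3 (log2 −4.80) and Tcf7 (−4.07), and Pou2f2 (−2.82), a partner of Pou2af1, fell with Il4 (−3.72) and Sh2d1a (−2.19), while the costimulator Icos rose (1.88). In KO tumor against KO spleen edgeR called 4 of the 20 lower (1.35% of all genes), Slamf6 (−2.84), Btla (−2.44), Tcf7 (−2.47) and Tox2 (−3.57), and DESeq2 called 14 lower and 0 higher (19.7% of all genes in either direction), at a median of −2.14 against 0.01 over all genes. Pdcd1, which encodes PD-1, was at 1.85 ± 0.53 in WT (edgeR adjusted p = 0.0721) and 0.87 ± 0.59 in KO (edgeR adjusted p = 0.375). Il21, the ligand of Il21r, was at −1.65 ± 0.91 in WT and −2.68 ± 0.51 in KO, with edgeR adjusted p of 0.344 and 0.0626.

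The lists that follow are read against the same shares of all genes. Of 12 genes that oppose the follicular program or are low in it, 3 fell in WT tumor, Klf2 (−4.91), S1pr1 (−1.95) and Foxo1 (−1.86), and S1pr1, the egress receptor, fell in KO tumor (−3.35). Of 18 genes of IL-6 and IL-21 signaling, edgeR called 2 higher in WT tumor, Osmr (4.36) and Lifr (3.30), receptor chains that pair with gp130, and 0 in KO tumor. Levels were low: in WT tumor Osmr was at 2.08 and 3.68 CPM and Lifr at 3.23 and 1.86. In WT spleen Osmr had 1 and 7 counts and Lifr 11 and 5. Melanocyte marker sums were 1064 to 1958 CPM in WT tumor and 7.63 to 9.27 in WT spleen, and their part was not tested. Among 12 IL-1 family genes the antagonist Il1rn (5.01) and the cytokine Il1b (7.37), which binds the decoy encoded by Il1r2, rose in WT tumor, and edgeR called 0 in KO tumor, where DESeq2 called 3 higher and 3 lower. Both are abundant in myeloid cells, whose marker sums are given above. Of 12 genes of P2X and extracellular nucleotides, Art2b (−2.94), which modifies the P2RX7 channel, fell in WT tumor and Nt5e (−3.71), which makes adenosine, fell in KO tumor. Between genotypes edgeR called 0 genes of these 5 lists in either tissue. DESeq2 called 8 of them in tumor (4.68% of all genes), with Tcf7 (log2 2.07) and Klf2 (3.21) higher and Angptl2 (−3.59), Il2ra (−2.74), the IL-33 receptor gene Il1rl1 (−2.71), Nt5e (−2.61), Maf (−2.36) and Icos (−2.16) lower in KO. In spleen it called 1 (0.416% of all genes), Il1r1 (3.58), higher in KO.

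The 8 libraries differed in tissue and depth, so likeness between genes is described without a test. The patterns nearest those of Bcl6 and Cxcr5 were described by Pearson's r of log2 CPM (prior count 2) over these libraries among 17870 genes. For Bcl6 they were Il17ra (r = 0.990), Pkd2l2 (r = 0.984) and Zkscan1 (r = 0.983). Il17ra, an IL-17 receptor chain, was at 248 and 244 CPM in KO spleen and at 80.5 in WT spleen replicate 2. For Cxcr5 they were Coq5 (r = 0.990), Gucy1a3 (r = 0.990) and Armcx2 (r = 0.989). Gucy1a3, a subunit of soluble guanylate cyclase, was at 20.5 to 41.8 CPM in spleen and 1.19 to 2.41 in tumor, whereas Coq5 spanned only 27.6 to 40.7 CPM across all libraries.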

How the data were processed

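RNA-seq of eTreg cells from spleens and B16.OVA tumors was analysed in 8 libraries, 2 per group, with groups taken from the sample labels. The authors deposited raw counts of reads per gene for each library. Per the submitters' processing notes the reads were trimmed with Trimmomatic 0.36, aligned to GRCm38 with STAR 2.5.2b and counted with featureCounts of Subread 1.5.2. Whether strand was used is not given in the sources used here, so reads of Il6ra and of the antisense Gm42809 (242 shared bases, 902 against 8202 counts) cannot be told apart; overlaps of Bcl6, Cebpa and P2rx7 with other genes held at most 19 counts. A second deposited table of normalized values was not used.

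Each comparison was fitted on its 4 libraries (the interaction on 8) over the whole count table in R 4.3.3 with edgeR 4.0.16 (TMM, filterByExpr, quasi-likelihood F test), and p-values were Benjamini-Hochberg adjusted over all genes tested. All 10 genes passed the low-count filter in each comparison. Standard errors are the log2 fold change divided by the square root of F. DESeq2 1.42.0 was an alternative, with DESeq2 size factors, no filter, scaling to CD3 chains, a replicate block, all 8 libraries in the fit, a fold change threshold of 2 on the log2 scale and omission of each library. Both tools were tested on simulated data. No molecular identifiers separate PCR copies from distinct molecules, so the floors allow for counting error alone. The libraries of a group differed far beyond sampling noise (chi-square of 37.2 to 344 for each degree of freedom), so none was treated as a duplicate.

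The members and lists were chosen with earlier results of these data known. All 10 genes are named in every comparison, with Prdm1, the list genes past the threshold (at most 3 in each direction by adjusted p, and Pdcd1, Tcf7 and Il21), defining markers and the 3 genes most like Bcl6 and Cxcr5. List genes past these numbers, and those called by DESeq2 only, were named after their values were seen. Promoters came from RefSeq (GRCm38.p6).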

Additional observations from a re-analysis of the deposited data

Results flagged for a closer look

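Il1r2 is singled out because its genotype difference ran in opposite directions in the 2 tissues. Both KO tumor libraries (126 and 96.3 CPM) lay below both WT tumor libraries (290.1 and 437 CPM), and both KO spleen libraries (262 and 244 CPM) lay above both WT spleen libraries (167 and 111 CPM). The interaction was −2.57 ± 0.51 on the log2 scale (edgeR adjusted p = 0.234, DESeq2 adjusted p = 0.00496), and it was −1.39 with scaling to the CD3 chains. The T and Treg marker sums were low in both KO tumor libraries (1530 and 4110 CPM), and their part was not tested. In spleen the sums were 5355 and 4974 CPM in KO and 5878 and 6418 in WT. With 2 libraries in a group no other gene of the 10 had both tissues separated in opposite directions.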

How the results depend on the processing

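Over the 10 genes and 5 comparisons, 436 of 540 alternative values kept their direction and side of the threshold, 42 gained a call, 21 lost one and 41 changed sign. The number of the 10 genes called in KO against WT tumor was 0, but 2 with DESeq2, 3 without the low-count filter and 3 with the replicate block. In KO against WT spleen it was 0 and ranged from 0 to 6 with 1 library left out, 6 without WT spleen replicate 1. In WT tumor against spleen it was 5, but 3 scaled to the CD3 chains, 1 with all 8 libraries in the fit and 2 to 3 with 1 library left out. In KO tumor against spleen it was 1, but 5 with DESeq2, 5 without the filter, 0 scaled to the CD3 chains, 2 with all 8 libraries, and 0 to 9 with 1 library left out. For the interaction it was 0, but 2 with DESeq2 and 2 without the filter. The tumor to spleen difference in log2 Bcl6 to Prdm1 ranged from −2.33 to −1.63 with 1 library left out and had p = 0.0571 (exact permutation) without any 1 of the 4 splenic libraries. That of Il6ra to Il6st ranged from −1.80 to −0.83, with p = 0.0286 (exact permutation) without KO tumor replicate 1. A library left alone in its group was assumed to vary like the other group.

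Scaling to the CD3 chains shifted the median of all genes by 1.33 (tumor) and 0.34 (spleen) between genotypes, 0.41 (WT) and 1.38 (KO) between tissues and 0.995 in the interaction. Under it, signs changed for Ascl2 (0.36), Il21r (0.58) and Il6st (1.20) in KO against WT tumor and Il6ra (0.013) in spleen. They changed for Bcl6 (0.027) and Il6st (0.083) between tissues in WT and for Bcl6 (0.97), Il1r2 (0.33), Il6ra (1.10) and Il6st (0.85) in KO. In the interaction they changed for Bcl6 (0.94), Cxcr5 (1.10), Il21r (0.25), P2rx7 (1.43) and Il6st (0.77).

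With 1 library left out, signs also varied. In KO against WT tumor Bcl6 ranged from −0.30 to 1.06, P2rx7 from −0.88 to 1.13, Il6ra from −0.39 to 1.93, Il6st from −1.07 to 0.016 and Il21r from −0.91 to 0.057. In spleen Il21r ranged from −0.41 to 0.86 and Il6st from −0.46 to 1.61. Between tissues in WT Bcl6 ranged from −0.86 to 0.88 and Il6st from −0.85 to 1.13, and in KO Cebpa from −2.00 to 0.89 and Il21r from −0.24 to 0.46. In the interaction Bcl6 ranged from −1.65 to 0.12, Cxcr5 from −0.85 to 0.84, P2rx7 from −1.46 to 0.58, Il6st from −1.97 to 0.041, Il6ra from −0.047 to 2.32 and Il21r from −1.27 to 0.0042.

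The replicate numbers were not taken as pairs, since the labels do not tie them to mice (correlations of same-numbered deviations 0.23, 0.15, −0.024 and −0.22). With the replicate block Il6st was at 0.11 between tissues in WT and Cebpa at −0.54 in KO. The last correlation is negative, and a crossed block, added after seeing the data, gave 5 of the 10 genes, Cebpa at −0.52 and 2934 genes in all.

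Over all genes, calls went from 0 in KO against WT tumor to 761 (DESeq2), 1072 (no filter), 728 (block), 135 (all 8 libraries) and 8 (CD3). In spleen they went from 0 to 75, 167 and 101 with the first 3 of these and 21 to 3972 with 1 library left out. In WT tumor against spleen they went from 981 to 1805 (DESeq2), 1922 (no filter) and 213 to 1401, and in KO from 228 to 3813, 3183, 1674 (CD3), 1743 (all 8) and 0 to 4958. In the interaction they went from 0 to 307 (DESeq2) and 752 (no filter). Under CD3 scaling calls were 883 higher and 203 lower in WT tumor (674 and 307 without it) and 1595 and 79 in KO (136 and 92). The cause of these changes was not tested. Having 2 libraries a group, and levels near the floor for Ascl2, Cebpa and Pou2af1 in tumor, limit these values.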
